A study of Mus musculus with 6 samples.

Results

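MicroRNAs known from liver, red blood cells and muscle were followed in the small RNA of exosomes from RAW264.7 cells, a mouse macrophage line. They were taken by name from the table of mature microRNAs: miR-122, miR-192 and miR-194 for liver, miR-144, miR-451 and miR-486 for red blood cells, and miR-1, miR-133a, miR-133b and miR-206 for muscle. The rule kept 11 rows, which hold 10 of the 2704 distinct sequences of the table: 4 of liver, 5 of red blood cells and 1 of muscle. Of the 10 names, 7 were listed, and miR-1, miR-133b and miR-206 were not. Exosomes came from the supernatant of RAW264.7 cells kept on titanium disks with small-scale topography, which the labels call micro-/nano-, or on smooth titanium disks, with 3 libraries of each. Small-scale topography disks had been sandblasted, acid-etched and treated with hot alkali, and smooth disks had been polished. The labels describe the medium as free of exosomes, while the culture methods list fetal bovine serum in the complete medium. The study's methods say in general that experiments were repeated independently, but neither they nor the labels say whether the 3 libraries of a group stem from separate cultures. If they do not, p-values describe only how far these libraries spread, possibly for technical reasons.

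A mature microRNA is a short single strand that guides Argonaute to messenger RNAs, mainly through its seed near the 5′ end. miR-122 is the dominant microRNA of hepatocytes, where it acts on cholesterol and lipid metabolism. miR-192 lies beside 1 of the 2 miR-194 genes, and both microRNAs are known from liver, gut and kidney. miR-144 and miR-451 come from 1 primary transcript that the erythroid factor GATA1 switches on, and the miR-451 hairpin is cut by Argonaute 2 and not by Dicer. miR-486 lies within the ankyrin gene Ank1 and is abundant in red blood cells and in muscle. miR-1, miR-133 and miR-206 are microRNAs of heart and skeletal muscle. Many of these microRNAs are also known as circulating RNA of serum and plasma, and their mature sequences are much alike between mammals, so that a name does not give the species of origin.

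The sequences below are those of 7 of the 9 liver and red blood cell members as deposited, in DNA letters, and those of the 2 miR-122 arms are not shown. They are given because each value belongs to 1 exact sequence and forms of the same microRNA differ only at their ends. Capitals mark the seed, bases 2 to 8 from the 5′ end. A suffix such as R-1 or L+2 in a name gives the bases lost or gained at the right (3′) or left (5′) end against the entry that gave the name.
miR-192-5p_R-1: cTGACCTAtgaattgacagc
miR-194-5p: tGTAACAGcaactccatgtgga
miR-144-3p: tACAGTATagatgatgtact
miR-144-5p_L+2R-4: tGGGATATcatcatatactgt
miR-451-5p_R+1: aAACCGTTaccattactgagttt
miR-486_R-1: tCCTGTACtgagctgccccga
bta-miR-486_R+1: tCCTGTACtgagctgccccgaga
The 2 forms of miR-486 share 1 seed, and the other 5 sequences have a seed each. Against the mature mouse entries of RefSeq (GRCm38.p6), miR-194-5p and miR-144-3p were identical over their whole length. miR-192-5p ended 1 base earlier than its entry, and miR-451-5p ended 1 base later. miR-144-5p began 2 bases before its entry and ended 4 bases before its end, so its seed is shifted against the entry. The 23 nt form of miR-486 stood under a bovine and a canine name. It differed from the mouse Mir486 hairpin by G23A, where the hairpin's base comes first and the position is counted from 1 at the 5′ end of the sequence.

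Of the 10 sequences, 9 carried a rat name and the same 9 matched a mouse microRNA hairpin exactly over their whole length (GENCODE M21, GRCm38). miR-192-5p matched Mir192 on chromosome 19 (plus strand, 6264857 to 6264876). miR-194-5p matched Mir194-2, its neighbour on chromosome 19, from 6264658 to 6264679, and also Mir194-1 on chromosome 1, from 185313325 to 185313346, within an intron of Iars2. Its reads cannot be divided between the 2 genes. miR-144-3p matched Mir144 on chromosome 11, from 78073047 to 78073066, and miR-451-5p matched the neighbouring Mir451a, from 78073186 to 78073208, both on the plus strand. miR-486 matched Mir486 on chromosome 8 (plus strand, 23142587 to 23142607). It also matched Mir3107 on the minus strand of the same place, from 23142628 to 23142648, and both lie in an intron of Ank1.

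The deposited values are normalized. The value of 1 read was estimated per library from candidate sequences without a microRNA name, by the number that ends their label. It was 1.29, 1.55 and 1.05 for small-scale topography replicates 1, 2 and 3, and 0.826, 0.466 and 1.21 for smooth replicates 1, 2 and 3. On that scale the distinct listed sequences of a library added up to 163845, 180372 and 264828 reads on small-scale topography. On smooth disks they added up to 329805, 604081 and 194511 reads. Reads that were filtered out or not listed are not included. Sequences under 5 reads were mostly not listed, and only 1.59% to 6.92% of the listed sequences of a library were under that number. The value of 5 reads corresponds to 7.77 in normalized units in the least sensitive library, small-scale topography replicate 2, and to 2.33 in the most sensitive, smooth replicate 2. A value of 0 therefore means that a sequence is listed at 0, not that it was absent.

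miR-122-5p was the only member among the abundant microRNAs of these exosomes. Its normalized values were 3351, 3491 and 3102 in the 3 small-scale topography libraries, against 2295, 2255 and 3726 in the 3 smooth libraries. Smooth replicate 3 held the highest value of all 6, so the groups overlapped, while the other 2 smooth libraries lay below every small-scale topography library. The mean was 3315 ± 197 for small-scale topography and 2759 ± 838 for smooth disks (n = 3 libraries in each group, ± SD). The exact permutation test gave a two-sided p of 0.4, where 0.1 is the smallest that can be reached. These values rest on 2606, 2247 and 2952 reads on small-scale topography, and on 2779, 4839 and 3092 reads on smooth disks. miR-122-5p was the 10th to 16th most abundant of all sequences in every library. It held 1.59%, 1.25% and 1.11% of all normalized values on small-scale topography, against 0.843%, 0.801% and 1.59% on smooth disks. In such bulk libraries, fewer vesicles or cells of a type and less RNA in each cannot be told apart.

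In the fit over the whole table (limma on log2(value + 1)), the log2 fold change of miR-122-5p, small-scale topography over smooth, was 0.30 (SE 0.25, adjusted p = 0.823). Without smooth replicate 3 it was 0.54, with an unadjusted p of 0.00771 and an adjusted p of 0.300 (limma). Across all 6 fits that left out 1 library, it ran from 0.18 to 0.54. Its sequence matched Mir122 on chromosome 18 (plus strand, 65248866 to 65248886), within an exon of the long noncoding RNA AC157910.3. The opposite arm of the same hairpin, miR-122-3p, was listed in 1 library only, small-scale topography replicate 1, at 7.72, which is 6 reads. The sequence of that arm lay from 65248902 to 65248922. The 2 rows named pal-miR-10014-5p shared the seed of miR-122-5p, but held no more than 6.03 in any library.

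**Figure D1:**
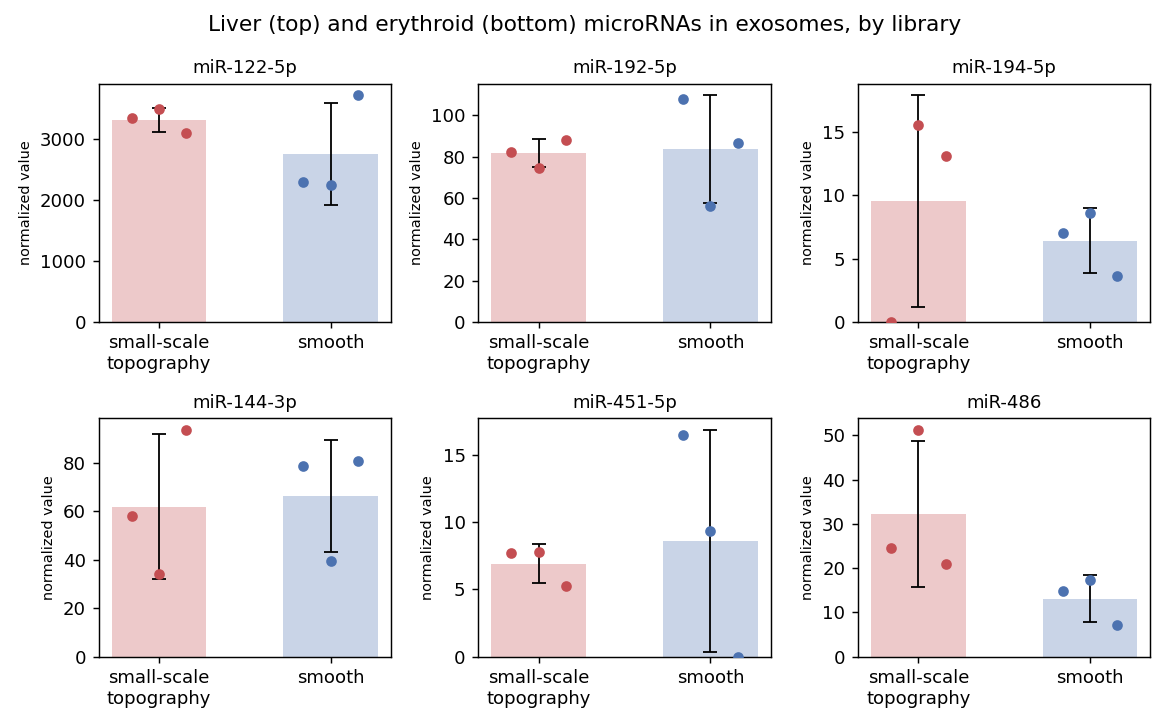
Normalized values (y axis, linear from 0, scaled per panel) of the 6 members that were tested, in the 3 small-scale topography libraries (red, left) and the 3 smooth libraries (blue, right). Points are libraries, bars are means and error bars are SD. miR-122-5p lies at 2255 or higher in all 6 libraries, and miR-486 is the only panel in which the groups do not overlap.

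miR-192-5p, the second liver member by level, had a coefficient of variation of 20.8% over the 6 libraries and did not separate the groups. It had 82.3, 74.6 and 88.3 in the small-scale topography libraries, against 108, 55.9 and 86.8 in the smooth libraries. The small-scale topography values lay inside the range of the smooth values. The log2 fold change was 0.01 (SE 0.42, limma, adjusted p = 0.993), with a 95% interval from -0.85 to 0.87. Its values rest on 48 to 131 reads, and it ranked between 107 and 147 among the sequences of a library. A sequence named cgr-miR-215-5p_R-2 shared its seed, as the paralog miR-215 does in mammals, and reached 28.9 at most.

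miR-194-5p, which in part shares its transcripts with miR-192, was close to the detection limit. It was listed at 0 in small-scale topography replicate 1 and had 15.5 and 13.1 in replicates 2 and 3, against 7.02, 8.62 and 3.62 in the smooth libraries. The 2 listed small-scale topography values were above all 3 smooth values. The third, a listed 0, would lie under 6.43, the value of 5 reads in that library, if the usual listing limit holds. That is below smooth replicates 1 and 2. It cannot be placed against smooth replicate 3, where the sequence was listed at 3 reads, under that limit. The mean was 9.56 for small-scale topography and 6.42 on smooth disks, while the log2 fold change was -0.20 (SE 1.42, limma, adjusted p = 0.982). The sign of the log2 value thus differs from that of the means, and it became positive, at 1.11, without small-scale topography replicate 1. In reads these are 0, 10 and 12.5 on small-scale topography, against 8.5, 18.5 and 3 on smooth disks. Several are not whole, so reads of this sequence were probably divided, and the listing limit may be lower for it. miR-192-5p was higher than miR-194-5p in 6 of 6 libraries, by 4.80 to 24 times where miR-194-5p was listed.

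Among the red blood cell microRNAs, miR-144-3p had the highest level. It had 57.9, 34.2 and 93.5 in the small-scale topography libraries, against 78.4, 39.6 and 80.7 in the smooth libraries. Each group held 1 low library, replicate 2 in both, and the ranges overlapped almost fully. The log2 fold change was -0.14 (SE 0.50, limma, adjusted p = 0.943), with a 95% interval from -1.16 to 0.87. It lay between -0.50 and 0.22 when 1 library was left out, and was above 0 without small-scale topography replicate 2, without smooth replicate 1 and without smooth replicate 3. Its opposite arm, miR-144-5p, was listed in smooth replicate 2 alone, at 2.33, which is 5 reads. That library is the deepest, and a sequence of 5 reads in it would lie under the usual listing limit at the same normalized value in any other library.

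miR-451-5p, the other product of the miR-144 transcript, was rare. It had 7.72, 7.77 and 5.25 in the small-scale topography libraries, against 16.5, 9.32 and 0 in the smooth libraries. There, 2 smooth libraries were above all 3 small-scale topography libraries, and smooth replicate 3 was listed at 0. The mean was 6.91 for small-scale topography and 8.61 on smooth disks, while the log2 fold change was 0.47 (SE 1.41, limma, adjusted p = 0.943). Without smooth replicate 3, the log2 fold change was -0.78. In reads these are 6, 5 and 5 on small-scale topography, against 20, 20 and 0 on smooth disks. miR-144-3p was higher than miR-451-5p in 6 of 6 libraries, by 4.25 to 17.8 times where miR-451-5p was listed.

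miR-486 was the only tested member whose groups did not overlap. It had 24.4, 51.3 and 21.02 in the small-scale topography libraries, against 14.9, 17.2 and 7.23 in the smooth libraries. Every small-scale topography library was above every smooth library, with the 2 nearest libraries at 21.02 and 17.2. The mean was 32.2 ± 16.6 for small-scale topography and 13.1 ± 5.23 for smooth disks (n = 3 libraries in each group, ± SD). The exact permutation test gave a two-sided p of 0.1, again the smallest that can be reached. The log2 fold change was 1.21 (SE 0.80, limma, unadjusted p = 0.140, adjusted p = 0.823), with a 95% interval from -0.42 to 2.83. It stayed between 0.83 and 1.45 when 1 library was left out.

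The depth behind miR-486 was small, at 19, 33 and 20 reads for small-scale topography and 18, 37 and 6 reads on smooth disks. In normalized values, the exact 95% Poisson intervals were 14.7 to 38.2, 35.3 to 71.99 and 12.8 to 32.5 on small-scale topography. They were 8.81 to 23.5, 12.1 to 23.8 and 2.65 to 15.7 on smooth disks. The interval of small-scale topography replicate 2 lay above all 3 smooth intervals, and those of replicates 1 and 3 overlapped with all 3. These intervals cover counting error only, since PCR copies of 1 molecule cannot be told apart. The 23 nt form under bovine and canine names was listed in smooth replicate 2 alone, at 1.63 in each of its 2 rows. Each row there corresponds to 3.5 reads, since the reads of a sequence with 2 names are divided between them.

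**Figure D2:**
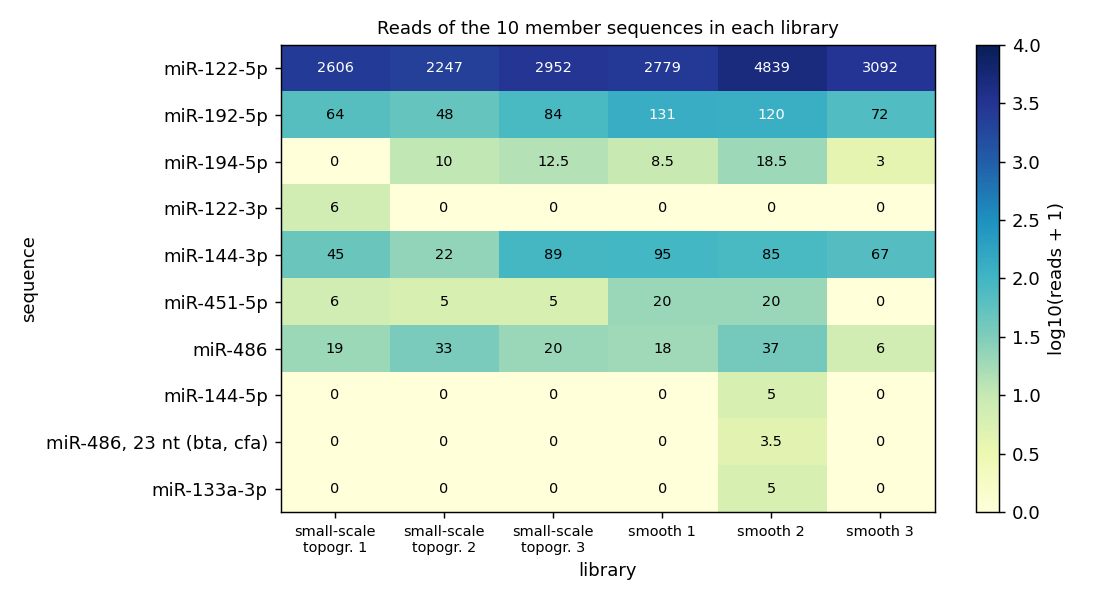
Reads (numbers in the cells, colour as log10 of reads plus 1) of the 10 member sequences (rows) in each library (columns, small-scale topography on the left and smooth on the right). miR-122-5p is the only sequence with 2247 reads or more in every library, and 4 sequences are listed in 1 library each. The 23 nt miR-486 is given per name.

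Of the microRNAs taken for muscle, a single sequence was listed. miR-486, which is abundant in muscle too, was counted with the red blood cell members. miR-133a-3p, which muscle makes together with miR-1, had 2.33 in smooth replicate 2, which is 5 reads, and was listed at 0 in the 3 small-scale topography libraries and the other 2 smooth libraries. The sequence matched both Mir133a-1 and Mir133a-2. miR-1, the most abundant microRNA of striated muscle, was not listed in any library. A row named rno-mir-206-p3_1ss9TG held 9.0 in small-scale topography replicate 1, and a row named hsa-mir-133a-2-p3_1ss9GT held up to 9.32 in 3 libraries. Both fall outside the rule on names and matched no mouse hairpin exactly.

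The order of the members was much the same in the 6 libraries at the top and uncertain at the bottom. A read covers a whole microRNA, so levels were compared without a correction for length. miR-122-5p was above miR-192-5p in 6 of 6 libraries, by 21.2 to 46.8 times. miR-192-5p was above miR-144-3p in 5 of 6 libraries, with ratios from 0.944 to 2.18, and miR-144-3p was above miR-486 in 5 of 6, with ratios from 0.667 to 11.2. The spread of these neighbours over the libraries overlapped. miR-486 was above miR-194-5p in 6 of 6 libraries, and miR-194-5p was above miR-451-5p in 3 of 6, with each listed 0 taken as 0. Together, the 10 sequences made up 1.68%, 1.31% and 1.19% of all normalized values on small-scale topography, against 0.925%, 0.850% and 1.67% on smooth disks. Of this sum, 91.1% to 95.4% was miR-122-5p. The 9 other sequences together made up 0.0854%, 0.0654% and 0.0795% on small-scale topography, against 0.0826%, 0.0487% and 0.0761% on smooth disks.

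Of the 10 member sequences, 6 passed the filter on low values, a sum of at least 20 over the 6 libraries, and none of the 6 was called at an adjusted p of 0.05 (limma, Benjamini-Hochberg over all 536 tested sequences). Over the whole table the share called was 0%. At an unadjusted p of 0.05, 0 of the 6 members passed, beside 2.24% of all tested sequences. The model without moderation also called 0 members. The groups did not overlap in 1 of the 6 members, miR-486, beside 6.9% of all tested sequences, and 1 of 6 is too small a count to set against that share. Of the members' log2 fold changes, 4 were above 0 and 2 below, with a median of 0.16, beside a median of 0.01 over all tested sequences. The intervals were widest for miR-194-5p, from -3.11 to 2.70, and for miR-451-5p, from -2.41 to 3.35, so that large differences in either direction are not excluded.

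**Figure D3:**
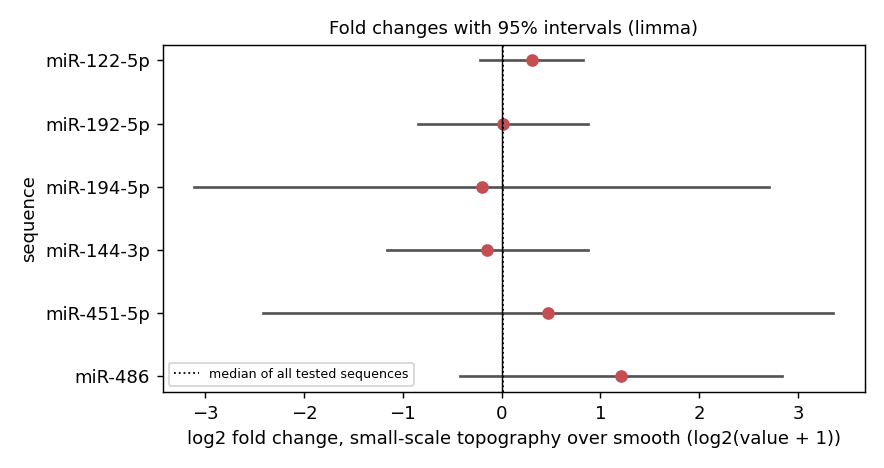
Log2 fold changes, small-scale topography over smooth (x axis, log2(value + 1) scale), of the 6 tested members (y axis). Points are estimates, horizontal lines are 95% intervals from limma, and the dotted line is the median over all tested sequences. All 6 intervals include 0.

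As a check for RNA from another source, the share of rat- and mouse-named sequences was set beside the members. It was 89.2%, 93.1% and 91.0% of all normalized values on small-scale topography, against 94.0%, 95.1% and 89.9% on smooth disks (exact permutation test, two-sided, p = 0.4, n = 3 each). The groups overlapped, and the 2 lowest libraries, small-scale topography replicate 1 and smooth replicate 3, were the 2 with the highest share of miR-122-5p. Most of the remainder were candidate sequences without a microRNA name, at 10.04%, 6.43% and 8.48% on small-scale topography, against 5.43%, 4.36% and 9.29% on smooth disks. Bovine-named sequences without an exact mouse hairpin held 0.412%, 0.229% and 0.309% on small-scale topography, against 0.280%, 0.261% and 0.454% on smooth disks (exact permutation test, two-sided, p = 0.8). Most of that was bta-miR-380-3p, at 540, 402 and 518 on small-scale topography, against 518, 482 and 752 on smooth disks. The highest value of bta-miR-380-3p was in smooth replicate 3, where miR-122-5p was highest too. Its lowest was in small-scale topography replicate 2, where miR-122-5p, at 3491, was above every library but smooth replicate 3.

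Over the 6 libraries, the share of miR-122-5p was lower where the share of rat- and mouse-named sequences was higher, with Pearson's r = -0.909 (exact permutation p = 0.0194, adjusted p = 0.0583) and Spearman's rho = -0.943 (exact permutation p = 0.0167, adjusted p = 0.05). Without the 2 libraries farthest from the median, r was -0.801. The share of miR-122-5p was also lower where the listed sequences held more reads, with r = -0.795 (exact permutation p = 0.00833, adjusted p = 0.05) and rho = -0.943. In that relation, r was -0.722 without the 2 farthest libraries. Against the bovine-named sequences, r was 0.795 (exact permutation p = 0.0833, adjusted p = 0.167), and rho was 0.60. That relation rests on small-scale topography replicate 1 and smooth replicate 3, without which r was -0.241. For the 9 other sequences together, r was -0.685, 0.524 and -0.739 against the same 3 measures, with adjusted exact permutation p-values of 0.196, 0.258 and 0.258. Spearman's rho was -0.60, 0.543 and -0.429, and r without the 2 farthest libraries was -0.035, 0.557 and 0.0798. These 6 relations were chosen after the values had been seen, and the p-values were adjusted over them. Of the measures, 2 are shares of the same total as miR-122-5p, and listed reads and composition moved together. miR-122-5p carries a rat name and is itself counted in the rat- and mouse-named share. The remainder of that share was mostly candidate sequences without a microRNA name. Since a name does not give the species of origin, that share does not measure RNA of another species. The part of a source other than the cells in the level of miR-122-5p was not tested.

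**Figure D4:**
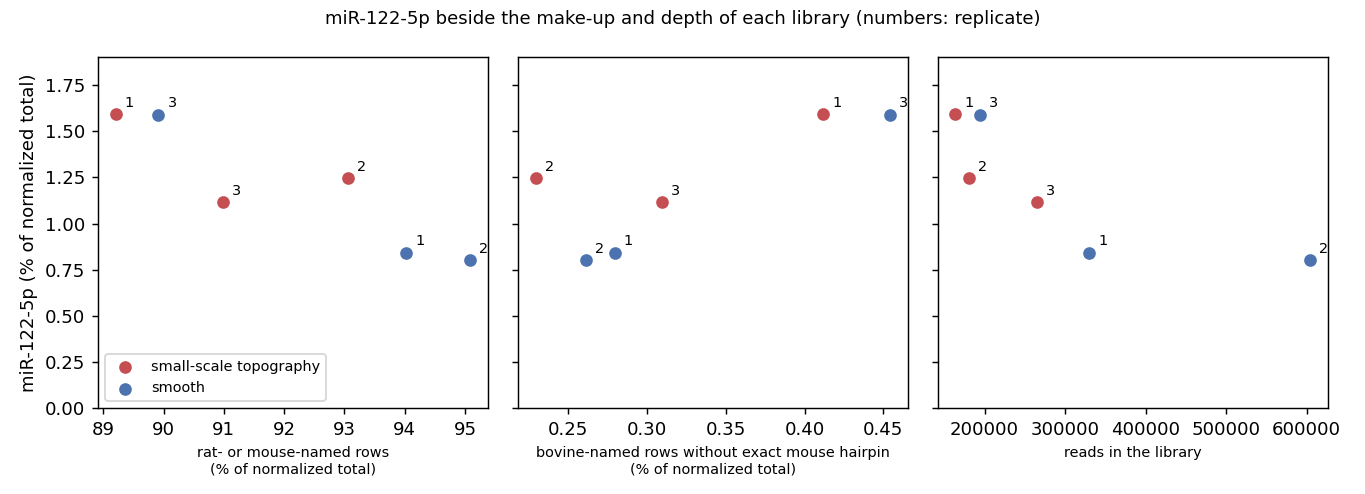
Share of miR-122-5p in the normalized total (y axis, %) against the share of rat- and mouse-named sequences (left, %), of bovine-named sequences without an exact mouse hairpin (middle, %) and the reads of the library's listed sequences (right). Each point is a library, red for small-scale topography and blue for smooth, numbered by replicate. The 2 libraries at 1.59% are low in rat- and mouse-named sequences, high in bovine-named ones and low in reads.

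The levels of other marker lists stood beside these values. The macrophage and myeloid microRNAs, the markers of the labelled cell, were listed for 5 of 5 names, with a summed normalized value of 81049 to 128529 for small-scale topography and 95021 to 131310 on smooth disks. Nearly all of it was miR-21-5p, so the sum mostly follows that sequence and says little about the others. miR-122-5p was higher than each of the other 9 sequences of that list in 6 of 6 libraries, among them miR-146a-5p, at 91.4 to 282 for small-scale topography and 300.1 to 493 on smooth disks. miR-223-3p, a defining microRNA of myeloid cells, had 0, 20.2 and 0 in the small-scale topography libraries, against 28.9, 23.8 and 9.64 in the smooth libraries, so the groups overlapped. The groups of miR-146a-5p did not overlap, as in 6.9% of all tested sequences. Of the 10 tested sequences of the list, 2 had a log2 fold change above 0 and 8 below, beside 50.56% above 0 over all tested sequences. At an unadjusted p of 0.05 (limma), 1 passed, lower on small-scale topography, beside 2.24% of all tested sequences. After adjustment 0 were called, beside 0% of all tested sequences.

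Other liver microRNAs, miR-148a and miR-215, had a summed value of 797, 573 and 707 on small-scale topography, against 317, 463 and 758 on smooth disks, and miR-885 was not listed. Nearly all of that sum was miR-148a. Smooth replicate 3 held the highest smooth value of this sum and of miR-122-5p, but not of miR-192-5p, and it held the lowest smooth value of miR-194-5p. Other microRNAs that are abundant in red blood cells, such as miR-16, miR-25 and miR-92a, were listed for 10 of 10 names, at 14392 to 21941 for small-scale topography and 15750 to 22217 on smooth disks, but most cells express them. Other heart and skeletal muscle microRNAs held 9.32 at most, and miR-208a, a defining microRNA of heart, was not listed. The endothelial miR-126 held 603 to 776 for small-scale topography and 460 to 800.1 on smooth disks. The epithelial list held 6.43 to 41.9 for small-scale topography and 19.3 to 66.6 on smooth disks, and the neural list 52.0 to 54.6 for small-scale topography and 57.8 to 82.3 on smooth disks. Nearly all of the neural sum was miR-128-3p, whose groups did not overlap, as in 6.9% of all tested sequences. miR-124-3p was listed in smooth replicate 2 alone, at 2.17, and miR-9, miR-129, miR-138 and miR-219a were not listed. No pancreatic microRNA was listed (0 of 4 names). The part of other cell types in the levels of the liver and red blood cell members was not tested.

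**Figure D5:**
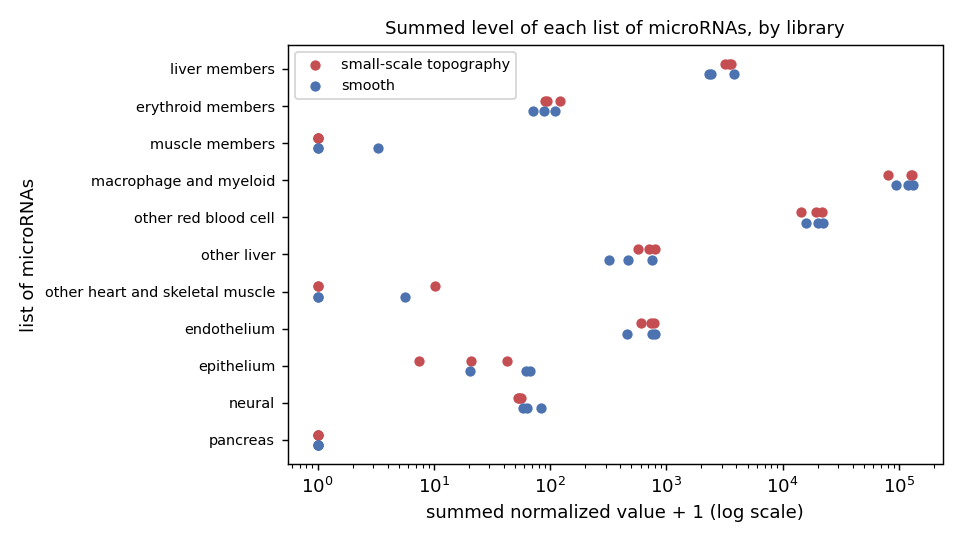
Summed normalized value plus 1 (x axis, log scale) of each list of microRNAs (y axis), with 1 point per library, red for small-scale topography and blue for smooth. The liver members lie between 2320 and 3817 in the 6 libraries, the red blood cell members between 70.1 and 120 and the muscle members at 0 in 5 libraries. The macrophage and myeloid list is highest, and nearly all of its sum is miR-21-5p.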

How the data were processed

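Small RNA of RAW264.7 exosomes was sequenced by the authors from TruSeq libraries, 3 for each kind of disk. Per the labels and methods, the 3′ adapter was removed, lengths of 18 to 26 nt were kept, reads matching other RNA classes and repeats were removed, and the ACGT101-miR program named and normalized the rest. What the authors deposited is a signal normalized within each library, 1 value per sequence, and no raw counts were used. The scaling, the release of miRBase, the program's version and the build are not given in the sources read.

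Rows with the same sequence and values were counted once. The fit used limma 3.58.1 (R 4.3.3) with a mean-variance trend on log2(value + 1) of sequences with a summed value of at least 20, with Benjamini-Hochberg adjustment at 0.05 and no covariate. The fit was tested on simulated data with these means and residuals, in which many sequences were changed. It called 13.95% of log2 changes of 1, 36.49% of 2, 48.44% of 3 and 65.79% of 4. Changes of these sizes can thus go uncalled, and more often where fewer sequences change, since the adjustment is then stricter. The percentages are taken over sequences of all levels. For single values the test was an exact permutation of the libraries (two-sided), whose smallest p is 0.1 here. The members and lists were chosen with earlier results of these data known. All members were named. By the rule on names, members with the highest level within a tissue were described in full. The fuller accounts of miR-486, miR-194-5p and miR-451-5p, and the miR-215 and miR-10014 entries, bta-miR-380-3p and the rows outside the rule were chosen after their values were seen.

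Reads were recovered from the value of 1 read. That value was the median, per library, of value over the number in the name, for candidates listed in that library alone. Within 0.02 reads, 89.2% to 93.8% of a library's values came out as whole reads and 98.8% to 99.6% as whole reads or multiples of 0.5, so no test for counts was run. In 1831 of the 1931 candidates that set this value, the number in the name equalled these reads, so that match is partly built in. In all 6 candidates under 2 names, which did not set the value, the reads of the rows added up to the number. Sequences were searched exactly in GENCODE M21 transcripts (GRCm38), and mature entries came from RefSeq. Python 3.11.15 was used with SciPy 1.17.1, pandas 2.3.3, Matplotlib 3.10.9 and NumPy 2.4.6. Alternatives were other scalings, filters and pseudocounts, each library left out, the replicate number as a block, models without moderation, rows as deposited, isomiRs summed and names only.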

Additional observations from a re-analysis of the deposited data

How the results depend on the processing

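No member sequence was called under any of the 14 alternatives or the 6 fits without 1 library (limma, or the same linear model without moderation). Over the whole table, the model without moderation on log2 values called 1 sequence, against 0 in the main analysis, and every other alternative called 0. The sequences at an unadjusted p under 0.05 numbered 12 in the main analysis, 7 to 38 without 1 library and 18 with the replicate block. They were 38 without smooth replicate 3, of which 1 was a member, miR-122-5p, 36, 22 and 20 without small-scale topography replicates 2, 1 and 3, and 7 without smooth replicate 2. With no filter they were 36 of 2704 sequences, with a sum of at least 60 they were 7, and scaled to the rat- and mouse-named total they were 8. The median log2 fold change of the members was 0.16, ran from 0.05 to 0.34 without 1 library, and was -0.065 with no filter, where all 10 members were tested. miR-122-5p, miR-486 and, outside the fits without 1 library, miR-144-3p kept their direction.

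The direction of 4 members changed. miR-194-5p went above 0 with a pseudocount of 5 (0.13), and its difference on the deposited values was 3.14. Without 1 library its log2 fold change ran from -0.91 to 1.11. miR-451-5p had a difference of -1.70 on the deposited values and ran from -0.78 to 1.28 without 1 library. miR-192-5p had a difference of -1.91 on the deposited values and ran from -0.25 to 0.22. miR-144-3p ran from -0.50 to 0.22. The differences on the deposited values are of group means, and the cause of the changes in sign was not tested.

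The difference in the members' summed share, 0.247 percentage points in the main analysis, ran from 0.0983, without smooth replicate 2, to 0.506, without smooth replicate 3. The difference in the share of rat- and mouse-named sequences, -1.93 percentage points, ran from -3.47, without smooth replicate 3, to -0.888, without smooth replicate 2, and was 0.0233 as a share of named rows only (exact permutation p = 0.5). Whether equal replicate numbers mark paired libraries cannot be told from 3 libraries per group. The correlations of the deviations of libraries with equal numbers were -0.035, 0.104 and 0.025. With the replicate block, 0 sequences and 0 members were called, and small-scale topography replicates 2 and 3 correlated best with the smooth library of the same number, while replicate 1 correlated best with smooth replicate 3. Rows of 1 sequence summed, and libraries scaled to the rat- and mouse-named total, were alternatives chosen after seeing the data.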
